A study of Rattus norvegicus with 28 samples.

Results

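LOC100911575 (ENSRNOG00000037607) is a rat gene record annotated as protein coding and described as 60S acidic ribosomal protein P2-like. It lies on chromosome 1 of the rat genome build rn6, at 214428526 to 214430515 on the plus strand, and its annotated exons add up to 348 bases within a span of 1990 bases. It is 1 of 36387 records in the deposited table of read counts. It was chosen by its measured counts, as the 1 gene of 17404 tested that passed the edgeR test (an adjusted p under 0.05) in any of 18 comparisons, which it did for both drugs at 3 mg/kg against vehicle. Its levels are therefore given as a description. Comparisons between groups outside that call are given with exact permutation tests. These comparisons were among the 18 searched, so they are not independent evidence. Adjusted p-values or calls of the other comparisons describe the same values again.

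Poly-A RNA was sequenced from the prefrontal cortex of Sprague-Dawley rats, adult males of an outbred stock, at 24 h after injection. Every animal had an intraperitoneal injection of ketanserin or of its Tween-80 vehicle, followed by an injection of psilocybin or of saline. The 28 libraries form 7 groups of 4 animals. These are ketanserin with psilocybin at 3 mg/kg each, ketanserin with psilocybin at 1 mg/kg each, ketanserin at 3 mg/kg, ketanserin at 1 mg/kg, psilocybin at 3 mg/kg, psilocybin at 1 mg/kg, and both vehicles. Replicate numbers only name the libraries. The stock is outbred, and the genotype of the animals was not analysed here.

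The acidic proteins P1 and P2 form dimers that are anchored by protein P0 to the large ribosomal subunit. Together they make the ribosomal stalk, which recruits and stimulates the GTPase factors of translation. The stalk is part of every cytoplasmic ribosome, so its genes are expressed broadly in neurons and glia. Psilocybin acts through psilocin, which activates several serotonin receptors, and ketanserin is an antagonist whose main target is the receptor encoded by Htr2a.

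Library totals ran from 12783067 to 18538414 counts. Libraries of a group differed by more than sampling noise (chi-square of 6.19 to 142 per gene). Neuron markers summed to 3320 to 4390 CPM, the counts of a gene scaled to a common library size, in every library, and oligodendrocyte markers to 1920 to 7480 CPM. Choroid plexus markers summed to 0 to 15.9 CPM. Endothelial markers summed to 40.2 to 69.4 CPM, though 1 of them, Cldn5, had 0 counts in every library. The library of replicate 4 given both drugs at 3 mg/kg stands apart. In it 19602 records had 0 counts, against 15344 to 16657 in the others, and its median Pearson r with the other libraries was 0.894 (log2 CPM across tested genes), against 0.948 to 0.972. Main results that include it are also given without it.

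LOC100911575 was high in most animals given both drugs or the lower dose of ketanserin, and low in most others. In bulk tissue, fewer cells of a type and less RNA per cell cannot be told apart. With both drugs at 3 mg/kg it was at 52.5, 87.3, 51.7 and 46.8 CPM in replicates 1 to 4. All of these libraries were high, and their mean was 59.6 ± 18.6 CPM (SD, n = 4), or 63.8 ± 20.3 CPM without replicate 4 (SD, n = 3). With both drugs at 1 mg/kg it was at 37.9, 53.5, 4.17 and 35.1 CPM, a mean of 32.7 ± 20.6 CPM (SD, n = 4). In that group replicate 3 sat at the level of the vehicle libraries while the other 3 were high.

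Ketanserin alone gave different levels at the 2 doses. At 3 mg/kg LOC100911575 was at 3.52, 2.5, 16.0 and 3.21 CPM, and only replicate 3 lay above the vehicle range. At 1 mg/kg it was at 51.1, 51.3, 26.6 and 43.5 CPM, all above every vehicle library. The means were 6.31 ± 6.49 CPM at 3 mg/kg and 43.1 ± 11.6 CPM at 1 mg/kg (SD, n = 4 each).

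Psilocybin alone left the gene near the vehicle level. At 3 mg/kg it was at 5.61, 3.1, 5.55 and 4.15 CPM, a mean of 4.6 ± 1.21 CPM (SD, n = 4). At 1 mg/kg it was at 2.09, 4.12, 11.7 and 3.18 CPM, a mean of 5.27 ± 4.37 CPM (SD, n = 4), with replicate 3 above the rest. Vehicle animals were at 2.1, 3.3, 2.97 and 4.11 CPM, a mean of 3.12 ± 0.835 CPM (SD, n = 4). These values rest on 31 to 1292 reads per library.

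**Figure D1:**
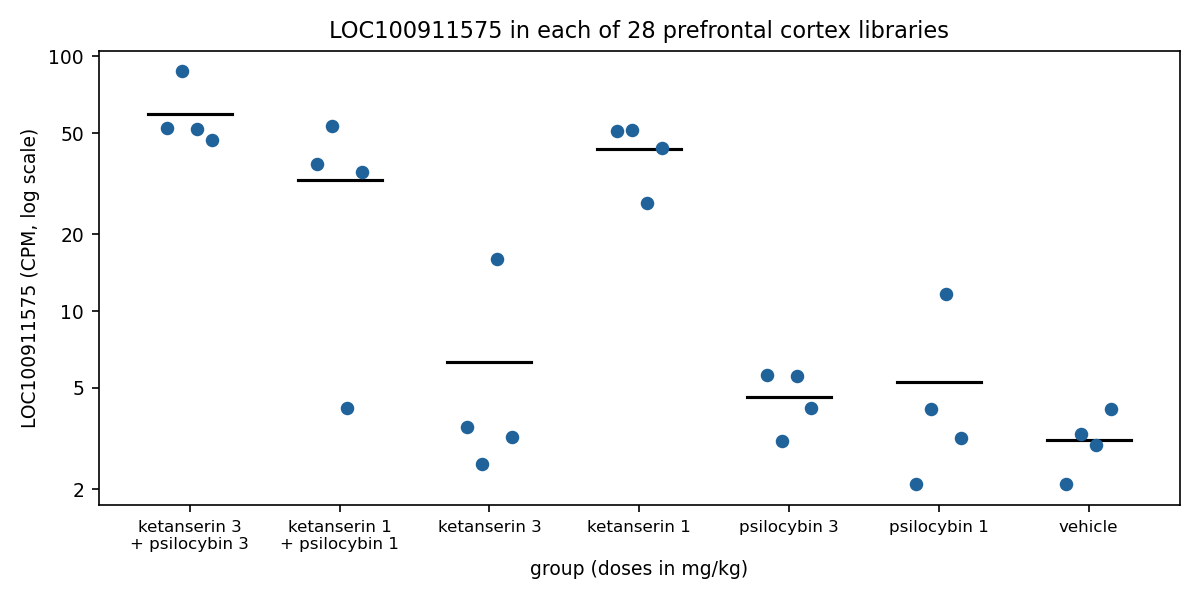
LOC100911575 in CPM on a log axis, 1 point per library and a bar at the mean of each group of 4, with doses in mg/kg. The 4 libraries given both drugs at 3 mg/kg lie between 46.8 and 87.3 CPM, and the 4 vehicle libraries lie between 2.1 and 4.11 CPM.

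Read across libraries and not groups, the levels fell into a low band and a high band with few libraries between. Below 6 CPM lay 15 libraries, at 30 CPM or more lay 10, and 3 lay between, at 11.7, 16.0 and 26.6 CPM. The widest gap between neighbouring libraries was 1.06 log2 units, between 5.61 and 11.7 CPM. The next was 0.73, between 16.0 and 26.6 CPM. The high band held 4 libraries given both drugs at 3 mg/kg, 3 given both at 1 mg/kg and 3 given ketanserin at 1 mg/kg, and no library of the other 4 groups.

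Animals of 1 group differed more for LOC100911575 than for most genes. Its SD within groups was 0.92 log2 units, against a median of 0.34 over all 17404 tested genes, of which 13.1% had a larger SD. Without the library that stands apart its SD was 0.94 and the median 0.31, and 7.59% had a larger one. Among 2531 genes of similar level the median SD was 0.25, and 44 had a larger one.

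In the order of the group means, both drugs at 3 mg/kg came first, then ketanserin at 1 mg/kg, both drugs at 1 mg/kg, ketanserin at 3 mg/kg, psilocybin at 1 mg/kg, psilocybin at 3 mg/kg and vehicle. Each group overlapped its neighbour in that order in the values of its libraries. The step between both drugs at 1 mg/kg (32.7 CPM) and ketanserin at 3 mg/kg (6.31 CPM) was the widest, and there replicate 3 of both groups made the overlap.

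The comparison that chose the gene was both drugs at 3 mg/kg minus vehicle. Its log2 fold change was 4.25 (SE 0.655, 95% interval 2.9 to 5.6), a 19.1-fold higher level, at an edgeR adjusted p of 0.0183. That adjustment covers the 17404 genes within the comparison and not the search over 18 comparisons. The gene next outside the threshold, Tacr1, a receptor of substance P, had 2.53 (SE 0.592) at an edgeR adjusted p of 0.999. In this comparison 0.00575% of the tested genes were called, and 0.396% had groups that did not overlap, with the drugs higher. Without the library that stands apart the log2 fold change was 4.36 (adjusted p = 0.0327). The call ended when 1 of the 4 vehicle libraries was left out, whichever it was (edgeR adjusted p of 0.108 to 0.235, log2 fold change of 4.11 to 4.42). It also ended without replicate 2 of the combination (4.01, adjusted p = 0.0772).

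The other comparisons with vehicle share its libraries with the call and are given as values. Both drugs at 1 mg/kg gave a log2 fold change of 3.39 (SE 0.637) and ketanserin at 1 mg/kg 3.79 (SE 0.645), in both cases with no overlap between groups. Of all tested genes, 0.667% and 0.718% were higher without overlap in these 2 comparisons. For both drugs at 1 mg/kg the separation was marginal. It rested on replicate 3 at 4.17 CPM (55 reads) against vehicle replicate 4 at 4.11 CPM (60 reads). Ketanserin at 3 mg/kg gave 1.01 (95% interval -0.28 to 2.29), which was -0.02 without its replicate 3. Psilocybin gave 0.55 (-0.75 to 1.85) for 3 mg/kg. The lower psilocybin dose gave 0.75 (-0.54 to 2.05), and -0.01 without its replicate 3. edgeR called 0 of 17404 genes in each of these 5 comparisons. In the order given, 227, 359, 348, 522 and 289 genes were at an unadjusted edgeR p under 0.05, and DESeq2 called 1, 1, 1, 0 and 3. The gene that DESeq2 called for both drugs at 1 mg/kg and for ketanserin at 1 mg/kg was LOC100911575. Its other calls here were of other genes.

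Setting both drugs at 3 mg/kg against each drug alone gave a log2 fold change of 3.70 (SE 0.633) over psilocybin and 3.25 (SE 0.617) over ketanserin. The groups did not overlap in either, which held for 0.689% and 0.649% of all tested genes with the combination higher. Without the library that stands apart they were 3.80 and 3.35. Against both drugs at 1 mg/kg the difference was 0.87 (95% interval -0.29 to 2.02), and 0.97 without that library. The interaction is the combination minus each drug alone plus vehicle. Its 95% interval was 0.91 to 4.48 around 2.69 at 3 mg/kg and -2.88 to 0.58 around -1.15 at 1 mg/kg. Without the library that stands apart the interaction at 3 mg/kg was 2.80 (0.93 to 4.67). Both share libraries with the call.

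Of the 18 comparisons, 7 were between groups that hold no library of the call. Their edgeR and DESeq2 values still rest on a spread estimated from all 28 libraries, those of the call included. Only their exact permutation tests were confined to libraries outside the call. The 7 comparisons bear on whether the level also differed among the remaining 20 animals. The pattern in these libraries was known when the gene was taken up, so the 7 are not independent evidence of it. In 0 of the 7 did the gene pass the edgeR test over all genes (adjusted p of 0.441 to 1), in 4 its unadjusted edgeR p was under 0.05, and in 2 DESeq2 called it. These 2 were ketanserin minus psilocybin at 1 mg/kg, where DESeq2 called 0.0151% of its genes, and the ketanserin groups outside the call minus psilocybin alone, where it called 0.00377%. DESeq2 also called the gene in 5 comparisons that share libraries with the call or are the call itself, again with 0.00377% called. Those 5 re-use values that chose the gene and add no evidence. The exact permutation tests below are two-sided, and with 4 animals against 4 they cannot go below 0.0286.

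Ketanserin at 3 mg/kg minus ketanserin at 1 mg/kg gave a log2 fold change of -2.78 (SE 0.607, 95% interval -4.03 to -1.53). The groups did not overlap, with 6.31 CPM at 3 mg/kg and 43.1 CPM at 1 mg/kg on average, and the exact permutation p was 0.0286 (0.0667 adjusted over the 7). Of all tested genes, 0.931% were lower without overlap. Ketanserin minus psilocybin at 1 mg/kg gave 3.03 (SE 0.616, 1.76 to 4.3), at 43.1 and 5.27 CPM, again with no overlap and the same exact permutation p. There 0.822% of all tested genes were higher without overlap.

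Both drugs minus psilocybin alone at 1 mg/kg gave 2.63 (SE 0.608, 95% interval 1.38 to 3.89). In 15 of 16 pairs of animals the one given both drugs was higher, and the exact permutation p was 0.0571 (0.0999 adjusted). Against ketanserin at 1 mg/kg the combination differed by -0.40 (-1.55 to 0.75; exact permutation p = 0.486). Ketanserin and psilocybin at 3 mg/kg differed by 0.45 (-0.8 to 1.7), and the 2 psilocybin doses by -0.20 (-1.46 to 1.06), both at an exact permutation p of 0.971. These 3 intervals each contain 0 and also reach differences of 0.75 log2 units or more.

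The 12 libraries of the ketanserin groups outside the call averaged 27.4 ± 20.6 CPM, and the 8 libraries of psilocybin alone averaged 4.94 ± 2.99 CPM (SD). The edgeR log2 difference between group means was 2.07 (SE 0.406, 95% interval 1.23 to 2.91). The exact permutation test of mean log2 CPM gave a p of 0.0108 (0.0667 adjusted over the 7). It shuffled single libraries, so it took those of unlike groups as replicates of the same condition. The pooling was set with levels in some of these groups known. The ketanserin groups of this comparison differed among themselves, since ketanserin at 3 mg/kg lay with psilocybin.

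**Figure D2:**
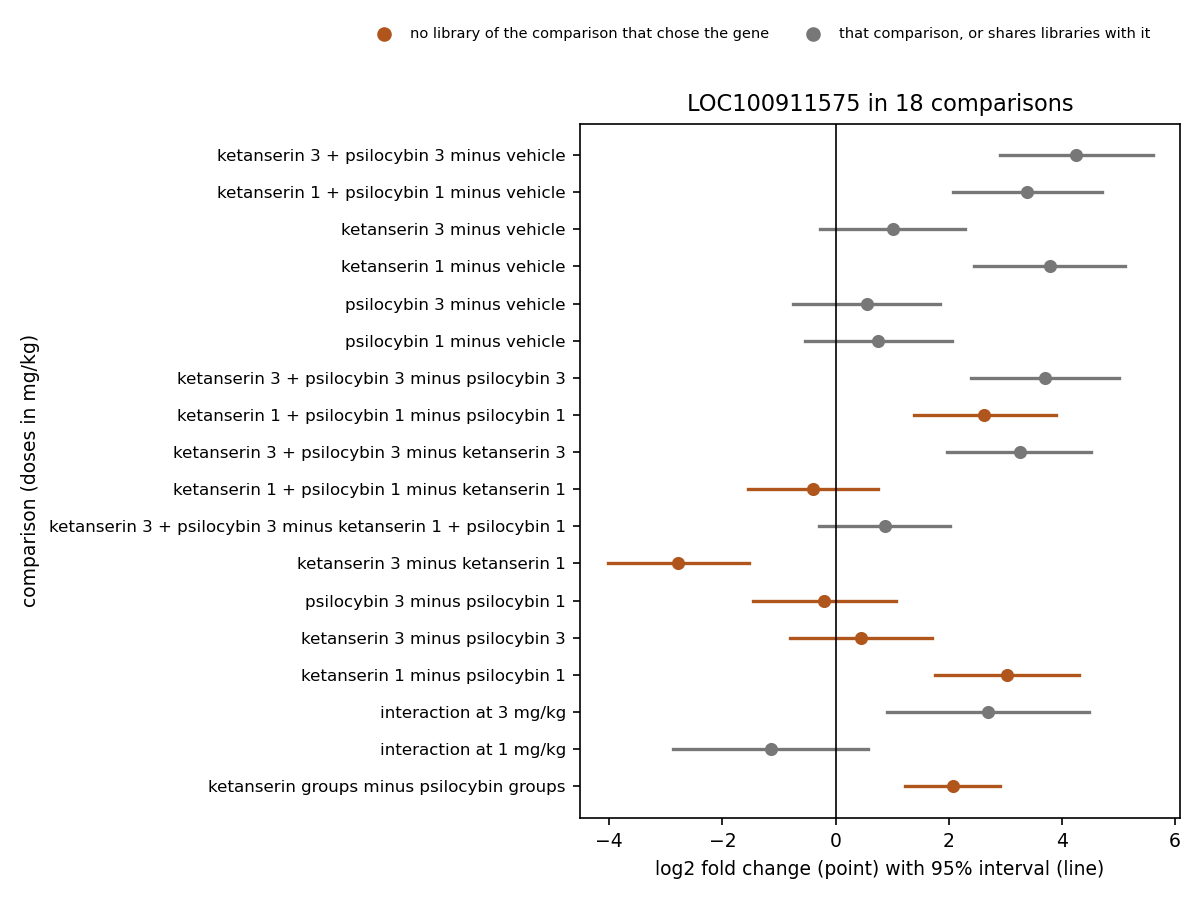
Log2 fold changes of LOC100911575 in 18 comparisons (points) with 95% intervals of the edgeR fit (lines), the group named first minus the group named second, doses in mg/kg. Brown marks the 7 comparisons between groups outside the comparison that chose the gene, though the spread behind their intervals comes from all 28 libraries. Among these 7 the interval excludes 0 for ketanserin at 3 mg/kg minus ketanserin at 1 mg/kg (-4.03 to -1.53) and for 3 others.

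In rn6 the gene has a near twin by annotation and position, though their sequences were not compared. Rplp2 (ENSRNOG00000002116), annotated as ribosomal protein P2 itself, lies on the same chromosome and strand at 213991620 to 213993609. Its start and its end are both 436906 bases before those of LOC100911575, and it has the same exon length of 348 bases. Rplp2 had 15 counts over all 28 libraries and 0 in 23 of them, with at most 0.508 CPM, so it was not tested. Of the counts of this pair 99.8% were assigned to LOC100911575. No source used here says how reads that match both records were counted, so the level of either record alone is uncertain. With the counts of both summed, the log2 fold changes of LOC100911575 kept their sign and their side of the threshold in all 18 comparisons. With only 15 counts of Rplp2 to add to 9472, this could hardly come out otherwise. The sum does not bear on reads that may have been left uncounted because they match both records.

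By position and annotation, the twin is part of a longer run of paired records, here called a repeat. From LOC100911365 to a U6 record, 14 records over 142 kb have a partner in the same order and on the same strand, 434712 to 437926 bases away by their starts. Pairs were made by symbol, description or place, so their order and distance follow in part from the pairing. In 3 of the 14 pairs both the start and the end were shifted by the same 436906 bases. Those 3 pairs are Rplp2 with LOC100911575, the SNORA52 records and the U6 records. The other pairs of the 14 include Slc25a22, a mitochondrial glutamate carrier, with LOC100911440, and Pnpla2, a triglyceride lipase, with LOC100911615. Cd151, a tetraspanin that binds integrins, pairs with LOC100911730, and Chid1 with LOC100911881. Of the 14 records in the copy with Rplp2, 12 had at most 20 counts over all libraries, the exceptions being Cend1 and Slc25a22. In the later RefSeq assembly GRCr8 each of Slc25a22, Cend1, Pidd1, Rplp2, Pnpla2, Cracr2b, Cd151, Tspan4 and Chid1 is listed once, in a run between Taldo1 and Ap2a2.

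The records beside LOC100911575 had levels of their own. Within 250 kb lie 31 other records, of which 22 were tested. That 0 of them passed edgeR follows from the choice of the gene, since 0 of all other tested genes did. In edgeR's 15 pairwise comparisons, 11 of the 22 (50%) had an unadjusted p under 0.05 at least once, as did 4140 of all 17404 tested genes (23.8%). Whether the share near the gene differs from that over all genes was not tested. Their Pearson r with LOC100911575 in log2 CPM over 28 libraries ran from -0.37 to 0.29 (-0.44 to 0.29 without the library that stands apart), a description over libraries that share depth and groups. The record that overlaps it, the small nucleolar RNA gene SNORA52, had 13 counts in all and was not tested.

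On the lower side the nearest named records are Taldo1, LOC100911365, Cend1, LOC100911440 and LOC100911519, the last ending 4644 bases away. Taldo1, transaldolase of the pentose phosphate pathway, was at 71.7 to 129 CPM. LOC100911440 was at 3.1 to 49.6 CPM, highest in replicate 2 of psilocybin at 3 mg/kg. LOC100911519, which matches the death domain protein Pidd1, was at 0 to 0.686 CPM and was not tested.

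On the higher side lie LOC100911615, which starts 4110 bases away, Cracr2b, AC109542.1, LOC100911730 and LOC681193. LOC100911615 was at 0.137 to 4.8 CPM, highest in replicate 4 of psilocybin at 1 mg/kg. LOC100911730 was at 0.381 to 16.1 CPM. Its highest and lowest libraries, replicates 3 and 4, were both given both drugs at 3 mg/kg. LOC681193, described as similar to a small subunit of RNA polymerase II, was at 0 to 11.3 CPM, with the highest value in replicate 4 of ketanserin at 3 mg/kg. Cracr2b and AC109542.1 reached at most 0.856 and 0.618 CPM and were not tested.

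A wide spread between animals was common to most tested records of the repeat, though LOC100911365 and Cend1 there had an SD of only 0.44 and 0.45 log2 units. The 8 tested records with a partner, LOC100911575 not counted, had a median SD within groups of 1.23 log2 units (0.44 to 1.56), and 6 of them exceeded LOC100911575. The 14 tested records without a partner had a median of 0.29 (0.11 to 1.14), and 2 exceeded it, the interferon regulator Irf7 and the cadherin-related gene Cdhr5. Both were at 0 CPM in the library that stands apart. Without that library the medians were 1.16 (0.44 to 1.57) with a partner and 0.27 (0.1 to 0.75) without one, and 6 of 8 and 0 of 14 exceeded LOC100911575. The 2 sets were not matched for level. Tested records with a partner averaged 0.871 to 9.21 CPM, and those without one included Cdhr5 at 1 CPM and Hras at 177 CPM. The records of the repeat were high in different animals, so that LOC100911881 peaked at 30.8 CPM in vehicle replicate 2, where LOC100911575 was at 3.3 CPM.

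**Figure D3:**
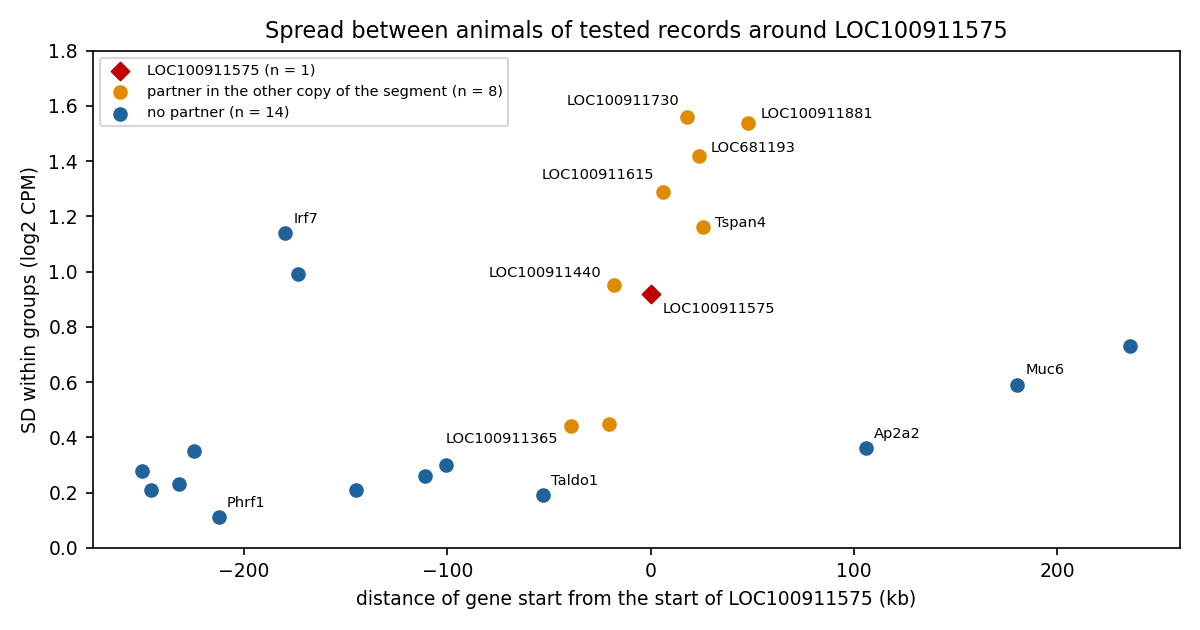
SD within groups in log2 CPM of each tested record within 250 kb, against the distance in kb of its start from that of LOC100911575. Records with a partner in the other copy (orange, 0.44 to 1.56) lie around LOC100911575 (red, 0.92), and records without a partner (blue, 0.11 to 1.14) lie on both sides.

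The other stalk genes were more even between libraries. Per length, in the deposited FPKM, Rplp1 on chromosome 8, which encodes P1, had a median of 600 FPKM (290 to 932), and Rplp0, which encodes P0, had 322 FPKM (231 to 467). LOC100911575 had a median of 15.9 FPKM, with 5.91 in its lowest library and 251 in its highest. Both drugs at 3 mg/kg minus vehicle gave log2 fold changes of -0.16 (SE 0.245) for Rplp1 and -0.10 (SE 0.17) for Rplp0. Both genes were at their lowest in the library that stands apart, and without it the values turned to 0.05 (SE 0.228) for Rplp1 and 0.02 (SE 0.174) for Rplp0. That these genes were not called follows from the choice of LOC100911575 as the 1 gene called.

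As a share of the Rplp1 level in FPKM, LOC100911575 stood at 33.3 ± 9.04% with both drugs at 3 mg/kg and 17.6 ± 10.7% with both at 1 mg/kg (SD, n = 4 each). With ketanserin it was 4.05 ± 4.84% at 3 mg/kg and 20.4 ± 5.43% at 1 mg/kg. With psilocybin it was 1.88 ± 0.526% at 3 mg/kg and 2.41 ± 1.95% at 1 mg/kg, and in vehicle 1.5 ± 0.359%. The highest share, 46.7%, was in the library that stands apart, where Rplp1 was at its lowest, and without it the share with both drugs at 3 mg/kg was 28.9 ± 1.79% (SD, n = 3).

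Records on other chromosomes also carry a P2 description. LOC498555 on chromosome 15 had a median of 66.6 FPKM (42.3 to 110), above LOC100911575 in 17 libraries, which include all those of vehicle, of psilocybin alone and of ketanserin at 3 mg/kg. LOC100362751 on chromosome 14 had 7.69 FPKM (4.41 to 15.8), and RGD1564095 on chromosome 5 was listed at 0 in every library. For both drugs at 3 mg/kg minus vehicle, LOC498555 gave 0.03 (SE 0.262) and LOC100362751 gave -0.12 (SE 0.342). They gave 0.20 (SE 0.269) and 0.05 (SE 0.352) without the library that stands apart. With the counts of all 5 P2 records summed, the same comparison gave 1.41 and was not called (edgeR adjusted p = 0.0783).

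**Figure D4:**
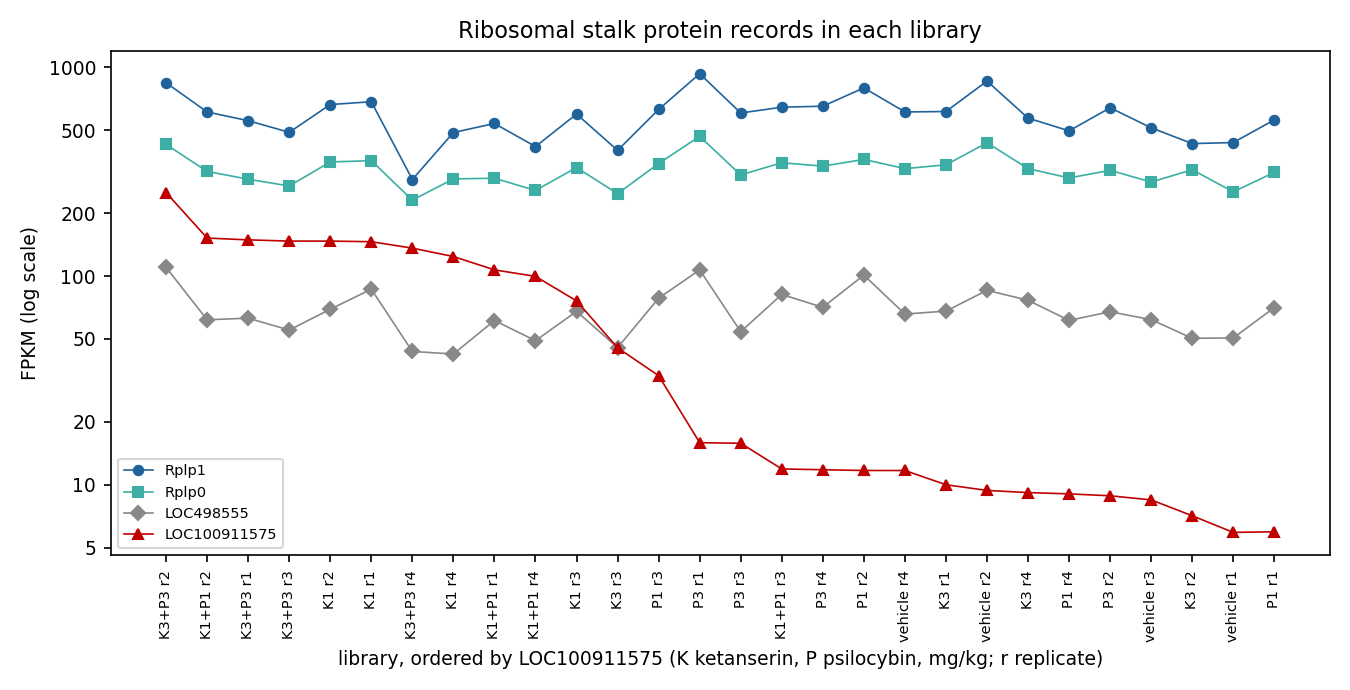
Deposited FPKM on a log axis of Rplp1, Rplp0, LOC498555 and LOC100911575 in each library, ordered by LOC100911575 (K ketanserin, P psilocybin, doses in mg/kg). LOC100911575 spans 5.91 to 251 FPKM, while Rplp1 stays within 290 to 932 and Rplp0 within 231 to 467.

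Likeness to other genes was at most moderate. The genes named are the extremes of 14142 correlations, and the values that unrelated genes would reach were not computed. Over the 14142 genes whose log2 CPM averaged 0 or more, the highest Pearson r with it over 28 libraries was 0.53, for Rbms1, an RNA-binding protein gene. Next came Hcar1, a lactate receptor, at 0.52, then Hrasls, the activin antagonist Fst and Ribc1 at 0.51 each, and Yipf6 at 0.50. The lowest were LOC685513 at -0.67, the transcriptional coregulator Cited2 at -0.64 and Iqcc at -0.58. In all, 17 genes had an r of 0.5 or more in either direction. Without the library that stands apart the 6 highest had 0.46 to 0.53 and the 3 lowest -0.68 to -0.55.

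With the group means removed, the likeness rests on differences between animals of 1 group, and other genes led. These were Ugt8, an enzyme of myelin lipid synthesis, at 0.70, Rybp at 0.67, Prima1 at 0.66, and Eya4, Gskip and Cab39 at 0.64. The lowest were Ccdc146 at -0.66 and, at -0.64, Grk6 and the synaptic vesicle gene Syn1. With the library that stands apart left out, these ran from 0.63 to 0.71 and from -0.67 to -0.64. By deviations, 103 genes had an r of 0.5 or more in either direction. None of the 6 highest by levels was among the 6 highest by deviations. All of these values share the 28 libraries and their depth, and they are given without a test.

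Htr2a, the gene of the receptor that ketanserin blocks, was at 25.4 to 46.6 CPM over the libraries, with a median of 31.8. Its Pearson r with LOC100911575 was -0.03, and -0.06 without the library that stands apart.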

How the data were processed

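Counts per gene and FPKM values were deposited by the authors for 28 rat prefrontal cortex libraries, as raw counts and as values scaled to exon length and depth, per the file headers. The submitters' processing notes name HISAT2 2.0.5, StringTie 1.3.3b, featureCounts 1.5.0-p3 and build rn6, without roles. Per the labels' protocols, libraries were poly-A selected and strand-marked. How reads matching several places were treated: not given in the sources used here.

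Counts were fitted with edgeR 4.0.16 in R 4.3.3 (TMM scaling, filterByExpr, 1 coefficient per group, 21 residual degrees of freedom, robust quasi-likelihood F test). The p-values were adjusted by Benjamini-Hochberg over 17404 genes within each comparison, with a call at an adjusted p under 0.05. Intervals cover 95%. Single-gene tests were exact permutation tests of the difference in mean log2 CPM. Correlations used log2(CPM + 0.1). The 3842 records without a gene name, with 1.99 to 4.46% of each library's counts, stayed in the totals and tests. The scripts were tested on simulated data.

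Alternatives were RLE size factors, no filter, DESeq2 1.42.0, a fit of only the groups compared, library sizes from named records, limma 3.58.1 on log2(FPKM + 0.1), and each library left out. Summing both copies or 5 P2 records, and leaving the library that stands apart out of the stalk, spread and correlation values, were chosen after seeing the data. The gene and all lists were chosen with earlier results of these data known. Named genes were LOC100911575, overlapping records, the 5 nearest named records on each side, records of the stalk proteins, the 6 highest and 3 lowest by Pearson r, and Htr2a. Further records of the repeat, and Irf7 and Cdhr5, were named after their values were seen. No sequence is printed.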

Additional observations from a re-analysis of the deposited data

Results flagged for a closer look

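A library was set apart where its gap to the nearest library of its group of 4 exceeded Dixon's critical share of 0.829 of the range. Over 14 genes and 98 groups there were 11 such libraries, and chance marks about 1 in 20 groups. LOC100911575 stood apart in replicate 2 given both drugs at 3 mg/kg, at 87.3 CPM where the other 3 were at 46.8 to 52.5. It also stood apart in replicate 3 of ketanserin at 3 mg/kg, at 16.0 CPM where the others were at 2.5 to 3.52.

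Among the records of the repeat, LOC100911440 was at 49.6 CPM in replicate 2 of psilocybin at 3 mg/kg, where the others were at 5.41 to 6.18. In replicate 4 of ketanserin at 3 mg/kg, LOC100911615 was at 2.33 CPM and LOC681193 at 11.3 CPM, with at most 0.521 and 0.456 in the other libraries of the group. LOC100911730 was at 10.4 CPM in replicate 2 of ketanserin at 1 mg/kg, where the others were at 2.08 to 2.29. In replicate 3 of psilocybin at 3 mg/kg, Tspan4 was at 6.59 CPM and LOC100911881 at 9.5 CPM, with at most 1.41 and 1.49 in the others. LOC100911881 was also at 30.8 CPM in vehicle replicate 2, where the others were at 7.43 to 9.46.

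Among the stalk genes, Rplp1 on chromosome 8 was at 467 CPM in replicate 1 of psilocybin at 3 mg/kg, where the others were at 302 to 327. LOC100362751 was at 4.09 CPM in replicate 3 given both drugs at 1 mg/kg, where the others were at 2.67 to 2.74.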

How the results depend on the processing

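Over 19 results, 684 alternative values were computed, of which 651 kept direction and side of the threshold. The call of both drugs at 3 mg/kg over vehicle was lost with no filter (4.27, adjusted p = 0.0849) and with 5 P2 records summed (1.41), and ran from 4.01 to 4.42 with a library left out. Of the calls listed next, those with vehicle or with both drugs at 3 mg/kg share libraries with the call that chose the gene and re-use its values, so they are no further evidence. DESeq2 called 6 comparisons, 4 of which share them, both drugs at 1 mg/kg over vehicle (3.39), ketanserin at 1 mg/kg over vehicle (3.79), both drugs at 3 mg/kg over psilocybin (3.70) and over ketanserin (3.25), ketanserin over psilocybin at 1 mg/kg (3.04), and the ketanserin groups outside the call over psilocybin alone (2.07). A fit of only the groups compared called ketanserin at 1 mg/kg over vehicle (3.78) and both drugs over psilocybin at 3 mg/kg (3.70), and limma on FPKM called ketanserin at 1 mg/kg over vehicle (3.77). With a library left out, 5 comparisons were called at least once. Both drugs at 1 mg/kg over vehicle ran from 3.04 to 3.75, ketanserin at 1 mg/kg over vehicle from 3.64 to 3.96, both drugs at 3 mg/kg over psilocybin from 3.46 to 3.82 and over ketanserin from 2.98 to 4.27, and the ketanserin groups outside the call from 1.73 to 2.46. The libraries whose absence gave those calls were replicates 3 of both drugs at 1 mg/kg, of ketanserin at 3 mg/kg and of psilocybin at 1 mg/kg. Signs turned in 4 uncalled comparisons. With a library left out, ketanserin at 3 mg/kg over vehicle ran from -0.02 to 1.27, psilocybin at 1 mg/kg over vehicle from -0.01 to 1.01, psilocybin at 3 over 1 mg/kg from -0.46 to 0.55 (0.08 in limma), and ketanserin over psilocybin at 3 mg/kg from -0.57 to 0.73 (-0.23 with 5 P2 records summed). The cause was not tested. Records called within 250 kb stayed at 0 in every alternative. No paired analysis was possible because the labels carry no replicate numbers. With 31 reads in the lowest library, counting error adds to the spread of the low levels.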
